A study of Rattus norvegicus with 21 samples.

Results

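The genes that make, sense, move and export cholesterol were followed in rat liver after short exposure to tert-butylphenyl diphenyl phosphate (BPDP), an organophosphate ester used as a flame retardant. The 35 genes were listed by their known place in sterol metabolism, and 31 of the 35 have a probe set naming them on the array, out of 14217 genes measured. The 31 are 18 enzymes of cholesterol synthesis and 13 genes of sterol sensing, transport, uptake, efflux and esterification; Hmgcs1, Npc1, Npc1l1 and Soat2 are not analysed here. All rats were male Harlan Sprague-Dawley animals dosed by gavage in corn oil once a day for 4 days, and their livers were taken on day 5. The vehicle group, given corn oil without the compound, has 6 arrays. Each dosed group has 3 arrays, at 64.6 mg/kg (0.169 mmol/kg), 129.2 mg/kg (0.338 mmol/kg), 258.1 mg/kg (0.675 mmol/kg), 516.2 mg/kg (1.35 mmol/kg) or 1032.5 mg/kg (2.7 mmol/kg). Age is not given in the labels. The protocol speaks of 5 vehicle rats and of 3 rats at each dose. Nothing in the labels says that the arrays of a group are separate animals. The p-values therefore measure the spread between these samples, which may be partly technical.

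Cholesterol is built from acetyl-CoA through mevalonate, farnesyl diphosphate, squalene and lanosterol. The pathway is governed by the transcription factor SREBP-2, which the escort protein Scap carries out of the endoplasmic reticulum when sterols are scarce and which the Insig proteins hold back when sterols are plentiful. The liver disposes of cholesterol by making bile acids, by exporting sterol into bile through the Abcg5 and Abcg8 transporter, and by loading it onto lipoproteins, where Lcat esterifies it.

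Each probe set has a log2 signal on every array, in which a difference of 1 is a doubling. "Rose", "fell" and "called" refer to a limma adjusted p under 0.05 against the vehicle, with the 6 groups in 1 fit. Every dose is set against the same 6 vehicle arrays, so the comparisons share that group's spread. The arrays were alike in level, with medians from 6.30 to 6.39, and pairs correlated at r from 0.984 to 0.995 across probe sets. Vehicle replicate 6 stood somewhat apart, correlating with the rest of its group at 0.989 on average where the other 5 vehicle arrays reached 0.993. Precision is limited by the number of arrays. Liver pieces are mixtures, and fewer cells of a type cannot be told apart from less RNA per cell. All 7 measured hepatocyte markers were well expressed and none was called at any dose, and their summed linear signal lay between 174260 and 177470 at 1032.5 mg/kg against 181650 to 191720 in the vehicle group. All 8 Kupffer cell markers had a negative mean difference at every dose. Their summed linear signal was 6665 to 8185 at 516.2 mg/kg and 6229 to 7903 at 1032.5 mg/kg, against 8403 to 11836 in the vehicle group, and 2 of the 8 fell at the top dose. The 8 stellate cell markers summed to 2293 to 3486 at 516.2 mg/kg and 2711 to 3221 at 1032.5 mg/kg, against 3503 to 5533, with 5 and 3 of them lower by the test. At 258.1 mg/kg 2 of the 8 were lower, with a sum of 3421 to 4356, and the Kupffer cell sum there was 5703 to 10460. Of 5 endothelial markers 2 fell at 516.2 mg/kg and 1 at 1032.5 mg/kg, and 2 of 3 red cell markers fell at 1032.5 mg/kg. Of 6 lymphocyte markers 1 fell at each of these doses. Of 4 cholangiocyte markers 1 rose at 258.1, 516.2 and 1032.5 mg/kg. The 4 summed to 888 to 1335, 1119 to 1177 and 985 to 1224 there, against 604 to 903 in the vehicle group. Their median log2 differences were 0.14, -0.04 and -0.12, with 3, 2 and 1 of the 4 positive and the rest negative. Beside these marker counts, limma called 1.33%, 2.64% and 4.14% of all genes lower at 258.1, 516.2 and 1032.5 mg/kg. It called 2.23%, 6.3% and 4.81% higher. No hepatocyte, Kupffer cell or stellate cell marker had a mean below the lower quartile of all values. The part of these cell populations in the results from 258.1 mg/kg upwards was not tested.

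Of the 31 genes, 7 were called at 1 dose or more and 24 at none. No member was called at 64.6 mg/kg, where limma called 0.197% of all genes as higher and 0.19% as lower, or at 129.2 mg/kg, where it called 0.352% as higher and 0.169% as lower. At an unadjusted p under 0.05 64.6 mg/kg gave 0 of 31 members higher and 2 lower, beside 4.75% and 4.57% of all genes. At 129.2 mg/kg 5 were higher and 1 lower, beside 5.00% and 4.11%. At 258.1 mg/kg 2 of 31 fell and none rose, beside 1.33% of all genes lower and 2.23% higher. At 516.2 mg/kg 4 fell and none rose, beside 2.64% and 6.3%. At 1032.5 mg/kg 3 fell and 1 rose, beside 4.14% and 4.81%. The 2 falls at 258.1 mg/kg were in synthesis enzymes, and the falls at 516.2 and 1032.5 mg/kg were in Insig2, the export transporters and Lcat. The single rise, at 1032.5 mg/kg, was in the synthesis enzyme Msmo1. A moderated F over the 5 doses passed for Pmvk, Msmo1, Hsd17b7, Insig2, Abcg8 and Lcat, 6 of 31, where 6.71% of all genes passed. That list rests on the probe set chosen for each gene. By the same F a further probe set of Hsd17b7 did not pass (adjusted p = 0.480). Further probe sets of Idi1 (adjusted p = 0.0161) and Insig2 (adjusted p = 0.000389) did.

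**Figure D1:**
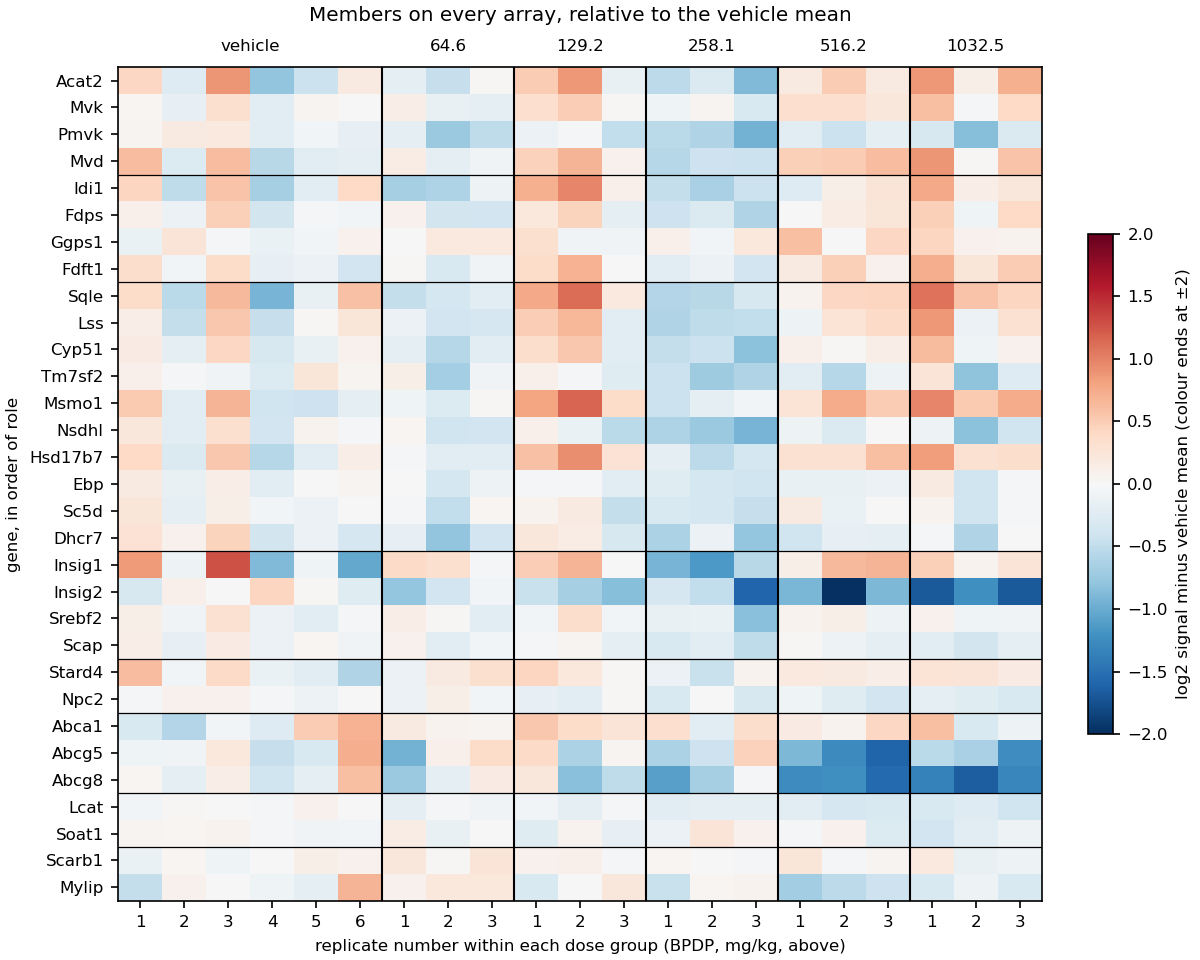
Log2 signal minus the vehicle mean for the 31 genes (rows, in pathway order) on each of the 21 arrays (columns, by dose group and replicate), with colours ending at -2 and 2. The synthesis enzymes in the upper rows shade together within a single array, while Insig2, Abcg5 and Abcg8 are low at 516.2 and 1032.5 mg/kg.

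The synthesis enzymes did not follow the dose in 1 direction. Averaged over the 18 enzymes, the vehicle group stood at 10.55 ± 0.29 (SD, n = 6), with a lowest array of 10.15, a median of 10.51 and a highest of 10.94. The arrays stood at 10.46, 10.15 and 10.38 at 64.6 mg/kg, at 10.89, 11.02 and 10.43 at 129.2 mg/kg, and at 10.14, 10.16 and 10.05 at 258.1 mg/kg. They stood at 10.61, 10.66 and 10.74 at 516.2 mg/kg and at 11.06, 10.42 and 10.76 at 1032.5 mg/kg. Only at 258.1 mg/kg did the arrays cluster at or below the lower end of the vehicle range, and 1 of the 3 lay just inside it. The median log2 difference from the vehicle over the 18 enzymes was -0.21, 0.25, -0.48, 0.16 and 0.29 in order of dose, where the median of all genes stayed within 0.02 of 0. For the other 13 genes the median difference was -0.02, -0.05, -0.20, -0.09 and -0.24 in order of dose. At 516.2 mg/kg 5 of the 13 differences were positive and 8 negative. The average of the 13 was 9.57 ± 0.12 (SD, n = 6) in the vehicle group and 9.29 ± 0.05, 9.25 ± 0.05 and 9.22 ± 0.08 (n = 3 each) at the 3 highest doses. All 9 of those arrays lay below the lowest vehicle array at 9.41. At the top doses Insig2, Abcg5 and Abcg8 weigh heavily in that average, with differences of -1.28, -1.26 and -1.35 at 516.2 mg/kg. No test was made of these averages, since the genes were chosen with earlier results known.

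**Figure D2:**
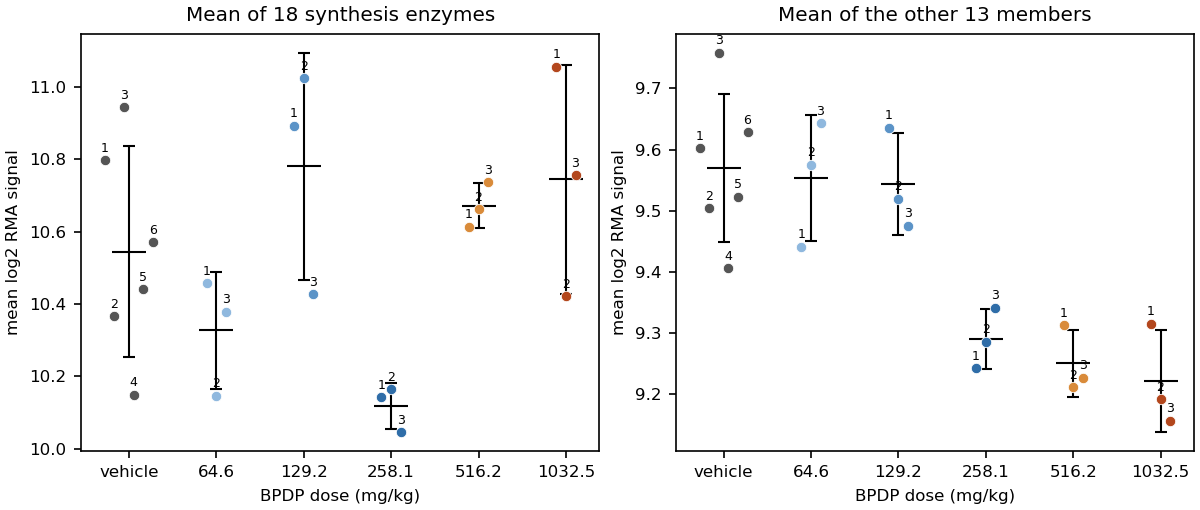
Mean log2 signal on each array over the 18 synthesis enzymes (left) and over the other 13 genes (right), by dose group; points are arrays with their replicate number, and bars give the mean and SD. The enzymes are lowest at 258.1 mg/kg, with arrays from 10.05 to 10.16 and an SD of 0.06, as at 516.2 mg/kg. The other genes lie below 9.41 on every array from 258.1 mg/kg upwards.

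In the early steps, Pmvk, which phosphorylates mevalonate phosphate, fell at 258.1 mg/kg. Its vehicle arrays ran from 10.25 through a median of 10.46 to 10.66. The dosed arrays stood at 10.28, 9.71 and 9.95 at 64.6 mg/kg, at 10.35, 10.42 and 9.97 at 129.2 mg/kg, at 9.93, 9.87 and 9.52 at 258.1 mg/kg, at 10.24, 10.04 and 10.26 at 516.2 mg/kg, and at 10.15, 9.61 and 10.17 at 1032.5 mg/kg. At 258.1 mg/kg every array lay below every vehicle array, and the same held at 1032.5 mg/kg. The log2 difference at 258.1 mg/kg was -0.69 (SE 0.15, 1.61-fold lower, adjusted p = 0.0136), and at 1032.5 mg/kg it was -0.49 (SE 0.15, adjusted p = 0.0534). Without 258.1 mg/kg replicate 3 the call at that dose was lost (adjusted p = 0.138). Acat2, which condenses acetyl-CoA units, Mvk, which phosphorylates mevalonate, and Mvd, which decarboxylates mevalonate diphosphate to isopentenyl diphosphate, were called at no dose. Their differences ranged from -0.56 to 0.57, from -0.11 to 0.32 and from -0.47 to 0.53 respectively.

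The prenyl chain enzymes were called at no dose. Idi1, which isomerises isopentenyl diphosphate, differed from the vehicle by between -0.51 at 258.1 mg/kg and 0.60 at 129.2 mg/kg. A second probe set for Idi1 gave -0.87 and 0.75 at these doses (limma adjusted p = 0.0998 and 0.424). Fdps, which makes farnesyl diphosphate, lay between -0.44 (258.1 mg/kg) and 0.26 (1032.5 mg/kg). Ggps1, which makes the geranylgeranyl chain for protein prenylation, was positive at all 5 doses by its chosen probe set, at most 0.34. Another probe set of similar level gave -0.19, -0.11, -0.01, 0.06 and -0.12 in order of dose. A further, dimmer one was positive at all 5 doses, at most 0.24. Fdft1, squalene synthase, came closest to a call at 1032.5 mg/kg with a difference of 0.49 (adjusted p = 0.0906).

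From squalene onwards 2 of 10 enzymes were called, in opposite directions and at different doses. Nsdhl, a sterol dehydrogenase that takes part in removing the methyl groups at carbon 4 of the ring, had vehicle arrays from 11.71 through a median of 12.12 to 12.42. Its arrays stood at 12.13, 11.69 and 11.70 at 64.6 mg/kg, at 12.18, 11.96 and 11.56 at 129.2 mg/kg, at 11.47, 11.35 and 11.16 at 258.1 mg/kg, at 11.99, 11.80 and 12.08 at 516.2 mg/kg, and at 11.99, 11.27 and 11.70 at 1032.5 mg/kg. Only at 258.1 mg/kg did all 3 arrays lie below all vehicle arrays. The log2 difference there was -0.76 (SE 0.17, 1.70-fold lower, adjusted p = 0.0178), and a second probe set for Nsdhl gave -0.61 (SE 0.14, adjusted p = 0.0219). At 516.2 and 1032.5 mg/kg the second probe set stayed at -0.41 and -0.38 (adjusted p = 0.0933 and 0.125), where the first gave -0.13 and -0.44. The limma slope per dose step passed for the second (-0.09, adjusted p = 0.0215) and not for the first (-0.08, adjusted p = 0.162). The call of the first probe set at 258.1 mg/kg was also lost without replicate 3 of that dose (adjusted p = 0.138). That dose held the widest spread in the RNA integrity controls, the 5' minus 3' log2 signal of Gapdh and beta-actin, at -2.03 ± 0.93 (SD, n = 3) against -1.95 ± 0.29 (n = 6) in the vehicle group. Its replicates 1, 2 and 3 stood at -3.10, -1.65 and -1.35. The group values were -2.30 ± 0.64 at 516.2 mg/kg and -1.54 ± 0.37 at 1032.5 mg/kg (n = 3 each). With that measure as a covariate the log2 differences of Pmvk and Nsdhl were -0.70 and -0.78 (adjusted p = 0.00995 for both).

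Msmo1, the oxidase that begins the removal of the same methyl groups, rose at 1032.5 mg/kg. Its vehicle arrays ran from 11.20 through a median of 11.41 to 12.28. The dosed arrays stood at 11.52, 11.33 and 11.62 at 64.6 mg/kg, at 12.40, 12.76 and 11.98 at 129.2 mg/kg, at 11.18, 11.41 and 11.56 at 258.1 mg/kg, at 11.87, 12.35 and 12.11 at 516.2 mg/kg, and at 12.59, 12.12 and 12.35 at 1032.5 mg/kg. The dosed arrays overlapped the vehicle arrays at every dose. Vehicle replicates 1 and 3 were the highest of their group, at 12.13 and 12.28. The log2 difference at 1032.5 mg/kg was 0.75 (SE 0.22, 1.68-fold higher, adjusted p = 0.0448). The difference at 129.2 mg/kg, 0.78, had the same SE and an adjusted p of 0.196. The call at 1032.5 mg/kg was lost without any 1 of its own 3 arrays (adjusted p = 0.209, 0.0665 and 0.120) and without vehicle replicate 2, 4, 5 or 6 (adjusted p = 0.0852, 0.0862, 0.0863 and 0.0680).

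The other 8 enzymes of this stretch were not called against the vehicle. Sqle, the squalene epoxidase, lay between -0.48 (258.1 mg/kg) and 0.69 (1032.5 mg/kg) (adjusted p = 0.166). Hsd17b7, which acts in the same demethylation, lay between -0.35 (258.1 mg/kg) and 0.60 (129.2 mg/kg). Lss, which closes the rings to lanosterol, Cyp51, its demethylase, Tm7sf2 and Ebp, a sterol reductase and a sterol isomerase, and Sc5d, a desaturase, each lay below all vehicle arrays at 258.1 mg/kg on all 3 arrays, with differences of -0.54, -0.58, -0.58, -0.33 and -0.37 and adjusted p-values from 0.108 to 0.293. Dhcr7, the reductase that ends one branch, lay between -0.51 (258.1 mg/kg) and 0.01 (129.2 mg/kg). With Pmvk and Nsdhl, 7 of the 18 enzymes lay wholly below the vehicle arrays at 258.1 mg/kg. Over all 31 genes the count was 10, or 0, 1, 10, 4 and 8 in order of dose, where the share of all genes was 2.2%, 2%, 3.52%, 5.25% and 7.08%. By the probe set chosen for it, no member lay wholly above the vehicle at any dose, where 3.23%, 3.03%, 5.66%, 8.97% and 6.89% of all genes did. A further probe set did so for Mvk at 64.6 mg/kg and for Scap at 64.6, 516.2 and 1032.5 mg/kg.

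Between neighbouring doses the arrays separated for most of the enzymes around 258.1 mg/kg. The 3 arrays at 258.1 mg/kg lay below the 3 at 129.2 mg/kg for 14 of 18 enzymes, and for Insig1, Srebf2 and Scap among the others, 17 of 31 in all, where 4.21% of all genes did so; none lay above, where 5.09% of all genes did. The 3 arrays at 516.2 mg/kg in turn lay above those at 258.1 mg/kg for 15 of 18 enzymes and for Insig1, Srebf2, Scap and Stard4, 19 of 31, where 7.01% of all genes did so. Abcg5, Abcg8 and Lcat lay below, 3 of 31 beside 4.9%. These counts rest on the probe set chosen for each gene. At the step to 516.2 mg/kg further probe sets of Fdft1, Lss and Hsd17b7 also lay above. Those of Mvk, Idi1, Cyp51, Nsdhl, Sc5d, Srebf2, Scap and Stard4 overlapped. At the step to 258.1 mg/kg those of Idi1, Fdft1, Lss, Cyp51 and Nsdhl also lay below, and those of Hsd17b7, Srebf2 and Scap overlapped. Idi1, Sqle, Msmo1, Hsd17b7 and Abca1 lay higher at 129.2 than at 64.6 mg/kg on all arrays, 5 of 31 beside 4.79%, and none lay lower, beside 5.17%. Between 516.2 and 1032.5 mg/kg only Sqle and Mylip were so separated, both higher at the top dose, 2 of 31 beside 4.28%, and none was lower, beside 7.56%. The median difference of the enzymes between neighbours was 0.45, -0.59, 0.56 and 0.07 from the lowest pair to the highest. Both neighbouring comparisons that involve 258.1 mg/kg share its 3 arrays, so the step down and the step up are not separate evidence. After adjustment limma called no gene of the array in any of the 4 comparisons (0% in either direction). The lowest adjusted p of a member was 0.794, 0.408, 0.706 and 0.665. At an unadjusted p under 0.05, 18 of 31 were lower at 258.1 than at 129.2 mg/kg and none higher, where 2.26% of all genes were lower. Likewise 16 were higher and 3 lower at 516.2 than at 258.1 mg/kg, where 4.18% and 3.02% of all genes were. From 64.6 to 129.2 mg/kg 8 were higher and none lower, beside 2.49% and 2.29% of all genes. From 516.2 to 1032.5 mg/kg none passed in either direction, beside 3.18% higher and 7.17% lower. With cyclic loess between arrays, or each array's median subtracted, 15 and 13 enzymes lay below at the step to 258.1 mg/kg and 15 and 15 above at the step to 516.2 mg/kg.

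The size of these steps differed among the enzymes. Sqle stood at 8.82, 9.86, 8.69, 9.47 and 9.86 as group means in order of dose, around a vehicle mean of 9.17 ± 0.65 (SD, n = 6). Its step from 129.2 to 258.1 mg/kg was -1.17 (SE 0.32, unadjusted p = 0.00142, adjusted p = 0.490), in which 258.1 mg/kg was 2.26-fold lower. Idi1 had a step of -1.11 (SE 0.29, adjusted p = 0.457), and Msmo1 went from 12.38 to 11.38 (SE of the difference 0.25, adjusted p = 0.434). Cyp51 had a smaller step of -0.80 (SE 0.21, adjusted p = 0.457). Mvd gave the largest return among these, 1.01 between 258.1 and 516.2 mg/kg (SE 0.26, adjusted p = 0.706).

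Single arrays carried the enzymes up or down together. Among the vehicle arrays, replicate 3 was the highest for 14 of 18 enzymes and replicate 4 the lowest for 14, and replicate 1 came second for 11. At 129.2 mg/kg replicate 2 was the highest for 14 and replicate 3 the lowest for 17. At 1032.5 mg/kg replicate 1 was the highest for 16 and replicate 2 the lowest for 16. At 258.1 and 516.2 mg/kg no array took such a place for more than 11 enzymes. The vehicle SD of all 18 enzymes exceeded the median over all genes, 0.135, with a median of 0.291 for the enzymes and 0.266 for the other 13 genes, of which 9 exceeded it. The 18 enzymes are therefore not 18 separate readings of a dose.

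The promoters were searched for 3 motifs, the sterol element TCACNCCAC, CCAAT and the GC box GGGCGG, on both strands of the 250 bases before the start of transcription. RefSeq promoters of assembly GRCr8 matched 26 of the 31 genes. None of the 26 held TCACNCCAC, which 0.97% of 33469 promoters held; this says only that these letters are not in that window. CCAAT was found in 12 of 15 enzyme promoters (80.0%) and 9 of 11 others (81.82%), beside 34.02% of all promoters and 34.55% of those of genes on the array. GGGCGG was found in 12 of 15 (80.0%) and 7 of 11 (63.64%), beside 30.47% and 52.31%. The median GC content was 60.8% and 59.6%, against 58.8% for genes on the array and 51.2% for all. A match is a description and not a binding site. The stretches that follow, and the one shown with the transporters, were chosen after the values were seen. Msmo1 and Nsdhl are shown because they were called in opposite directions while both carry CCAAT several times. Each ends at the base before the start, on the plus strand of GRCr8, Msmo1 at chr16:29746935-29747112 and Nsdhl at chrX:155817147-155817359. Capitals mark CCAAT or its reverse complement, 3 matches in Msmo1 and 5 in Nsdhl.
Msmo1: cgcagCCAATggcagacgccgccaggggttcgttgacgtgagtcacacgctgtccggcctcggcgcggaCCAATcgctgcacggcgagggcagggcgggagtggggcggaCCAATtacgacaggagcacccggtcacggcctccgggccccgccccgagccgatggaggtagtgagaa
Nsdhl: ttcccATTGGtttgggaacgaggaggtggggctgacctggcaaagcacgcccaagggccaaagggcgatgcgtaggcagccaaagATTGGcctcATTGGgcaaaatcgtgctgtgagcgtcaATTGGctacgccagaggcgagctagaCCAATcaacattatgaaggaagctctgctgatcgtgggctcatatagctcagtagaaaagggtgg

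Of the 4 sterol sensing genes Insig2 alone was called. Insig2, an endoplasmic reticulum protein that retains Scap, had vehicle arrays from 11.60 through a median of 11.93 to 12.34. Its arrays stood at 11.14, 11.52 and 11.86 at 64.6 mg/kg, at 11.46, 11.24 and 11.06 at 129.2 mg/kg, at 11.57, 11.42 and 10.33 at 258.1 mg/kg, at 10.99, 9.89 and 11.01 at 516.2 mg/kg, and at 10.24, 10.69 and 10.23 at 1032.5 mg/kg. From 129.2 mg/kg upwards every array lay below every vehicle array. The log2 differences were -0.41, -0.66 and -0.81 at the 3 lowest doses (adjusted p = 0.761, 0.536 and 0.124). Insig2 fell at 516.2 mg/kg by 1.28 on the log2 scale (SE 0.26, 2.43-fold, adjusted p = 0.00555) and at 1032.5 mg/kg by 1.53 (SE 0.26, 2.88-fold, adjusted p = 0.000767). A second probe set for the gene was called from 258.1 mg/kg upwards, with differences of -1.04, -1.71 and -1.76 (adjusted p = 0.0286, 0.000361 and 0.000129). Among the 16 genes with several probe sets, only Insig2 and Nsdhl had a further probe set that was called.

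Insig1, the paralogue of Insig2 and itself a target of SREBP-2, varied most among the vehicle arrays. They ran from 9.85 through a median of 10.78 to 12.15. The dosed arrays stood at 11.26, 11.20 and 10.86 at 64.6 mg/kg, at 11.37, 11.56 and 10.86 at 129.2 mg/kg, at 9.96, 9.72 and 10.33 at 258.1 mg/kg, at 11.00, 11.52 and 11.56 at 516.2 mg/kg, and at 11.36, 10.95 and 11.14 at 1032.5 mg/kg. The 258.1 mg/kg arrays lay below those of all other doses, yet the vehicle range covered every group except 1 array. The difference at 258.1 mg/kg was -0.88 (95% interval -1.62 to -0.13, adjusted p = 0.275), and the other doses lay between 0.23 and 0.48. The group mean of Insig1, like the average of the enzymes, was lowest at 258.1 mg/kg, but Insig1 was not called there. Insig2 had a slope with dose: -0.30 per dose step (SE 0.04, adjusted p = 2.46e-05).

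Srebf2, the gene of SREBP-2, had vehicle arrays from 9.79 through a median of 9.96 to 10.31. Its dosed arrays stood at 10.14, 10.03 and 9.79, at 9.95, 10.36 and 9.96, at 9.85, 9.87 and 9.17, at 10.08, 10.12 and 9.90, and at 10.10, 9.92 and 9.94 in order of dose. All groups overlapped the vehicle arrays. The largest difference was -0.37 at 258.1 mg/kg (95% interval -0.67 to -0.08, adjusted p = 0.227), to which replicate 3 contributed most. Scap had vehicle arrays from 9.66 through a median of 9.81 to 9.98. Its dosed arrays stood at 9.91, 9.59 and 9.77, at 9.80, 9.88 and 9.63, at 9.51, 9.59 and 9.32, at 9.84, 9.71 and 9.62, and at 9.62, 9.45 and 9.63 in order of dose. They lay below all vehicle arrays at 258.1 mg/kg, with a difference of -0.34 (SE 0.10, adjusted p = 0.0642), and at 1032.5 mg/kg, with -0.25 (adjusted p = 0.139). A second, dimmer probe set for Scap, with a vehicle mean of 6.33, went the other way. Its differences were 0.12, 0.21 and 0.13 at 258.1, 516.2 and 1032.5 mg/kg (adjusted p = 0.695, 0.185 and 0.531).

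None of the 4 transport and uptake genes was called against the vehicle. Stard4, which carries cholesterol through the cytosol, lay between -0.16 (258.1 mg/kg) and 0.23 (1032.5 mg/kg). Npc2, which hands cholesterol out of the lysosome, had a small negative slope, -0.06 per dose step (SE 0.01, adjusted p = 0.00876). Scarb1, the receptor that takes up sterol from HDL, stayed between -0.02 and 0.17. Mylip, a ubiquitin ligase that marks lipoprotein receptors for degradation, had its largest difference at 516.2 mg/kg, -0.55 (SE 0.18, adjusted p = 0.0732).

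The transporter pair Abcg5 and Abcg8, whose products join to pump sterols into bile, gave the other large decreases. Abca1, which loads cholesterol onto apolipoprotein A-I, stayed between 0.07 and 0.38 by its chosen probe set. Further probe sets of Abca1 lay between -0.42 and 0.30, and none was called. Abcg8 had vehicle arrays from 6.28 through a median of 6.61 to 7.29. Its dosed arrays stood at 5.93, 6.48 and 6.84 at 64.6 mg/kg, at 6.90, 5.85 and 6.17 at 129.2 mg/kg, at 5.60, 6.01 and 6.65 at 258.1 mg/kg, at 5.42, 5.46 and 5.12 at 516.2 mg/kg, and at 5.33, 5.03 and 5.37 at 1032.5 mg/kg. The 6 arrays of the 2 top doses lay below all vehicle arrays and below every array of the lower doses. Abcg8 fell by 1.35 at 516.2 mg/kg (log2, SE 0.25, 2.54-fold, adjusted p = 0.00266) and by 1.43 at 1032.5 mg/kg (SE 0.25, 2.70-fold, adjusted p = 0.000868). These levels approach the lower quartile of all values, 5.03, where RMA signals are compressed.

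Abcg5 had vehicle arrays from 7.98 through a median of 8.37 to 9.17. Its dosed arrays stood at 7.49, 8.54 and 8.82 at 64.6 mg/kg, at 8.82, 7.82 and 8.50 at 129.2 mg/kg, at 7.82, 8.03 and 8.90 at 258.1 mg/kg, at 7.54, 7.18 and 6.85 at 516.2 mg/kg, and at 7.91, 7.79 and 7.20 at 1032.5 mg/kg. Here too all arrays of both top doses lay below the vehicle arrays. Abcg5 fell at 516.2 mg/kg by 1.26 (log2, SE 0.30, 2.39-fold, adjusted p = 0.0180). At 1032.5 mg/kg the difference was -0.81 (SE 0.30, adjusted p = 0.136). The difference between those doses, 0.45 (SE 0.35, adjusted p = 0.741), was within the error. The call at 516.2 mg/kg was lost without that dose's replicate 3 (adjusted p = 0.111). Vehicle replicate 6 held the highest value of both transporters, and without it the log2 differences at 516.2 mg/kg were -1.11 for Abcg5 (adjusted p = 0.0265) and -1.22 for Abcg8 (adjusted p = 0.00391).

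**Figure D3:**
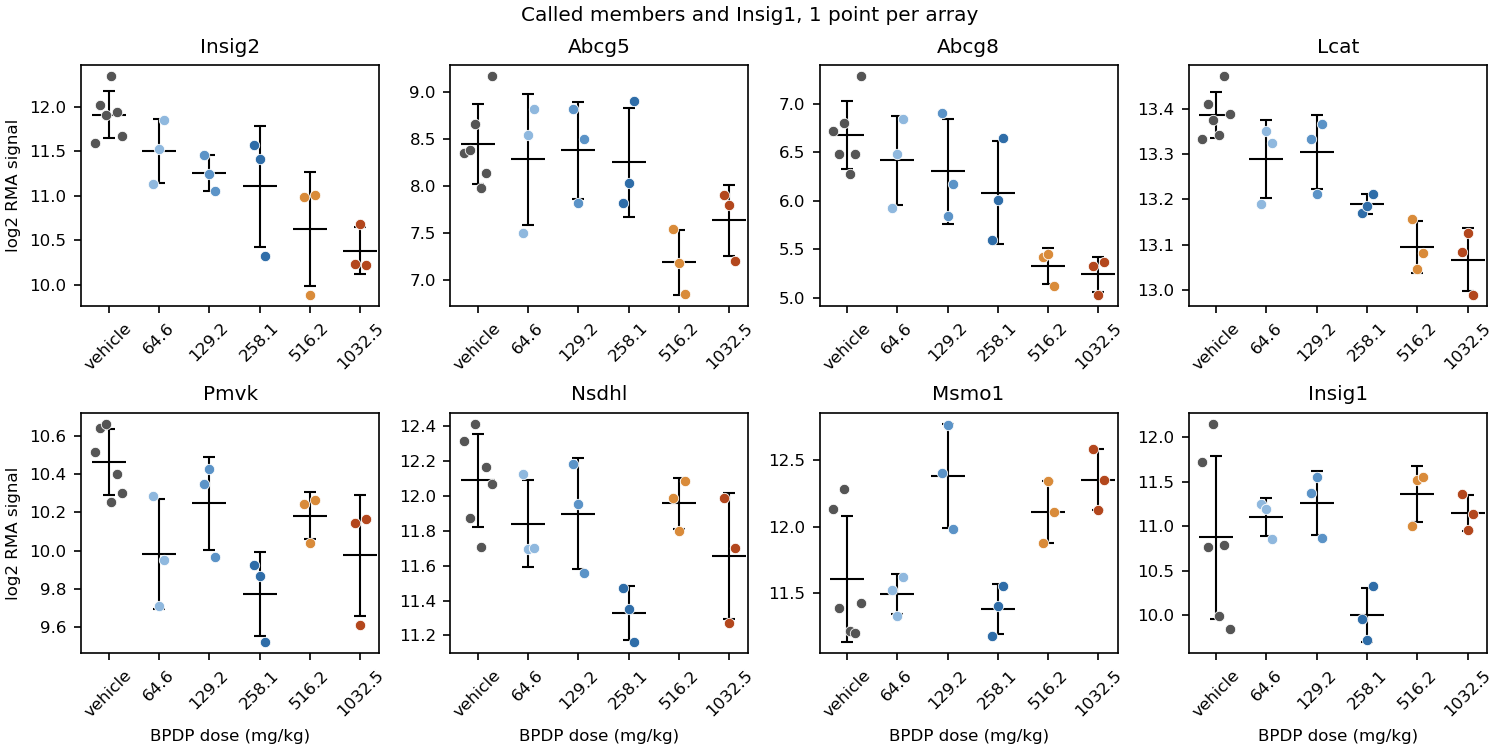
Log2 signal of Insig2, Abcg5, Abcg8, Lcat, Pmvk, Nsdhl, Msmo1 and Insig1 on each array by dose group; points are arrays, and bars give the mean and SD (n = 6 for the vehicle, n = 3 per dose). Insig2, Abcg8 and Lcat decline towards the top doses, Pmvk and Nsdhl are lowest at 258.1 mg/kg, and Msmo1 and Insig1 dip there and return.

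Abcg5 and Abcg8 also varied together among the vehicle arrays, taken as 6 separate animals, which the labels do not settle. Over these arrays Pearson's r was 0.967 (exact permutation p = 0.0111, 0.0444 adjusted over the 4 pairs examined). Spearman's rho was 0.829 (exact permutation p = 0.0583, adjusted 0.206), and r was 0.770 over the 4 arrays left without the 2 farthest from the median of Abcg5. The other pairs were Insig1 with Stard4 (r = 0.881, exact permutation p = 0.0444, adjusted 0.0889; rho = 0.771, p = 0.103, adjusted 0.206), with Srebf2 (r = 0.775, p = 0.0917, adjusted 0.122; rho = 0.486, p = 0.356, adjusted 0.474) and with Insig2 (r = -0.33, p = 0.508, adjusted 0.508; rho = -0.31, p = 0.564, adjusted 0.564). Without the 2 farthest arrays these were 0.623, -0.52 and 0.0575, so the relation of Insig1 with Srebf2 rests on those arrays. The 2 transporter genes lie head to head in the rat genome and share the bases between their starts. That stretch of 205 bases is chr6:15717731-15717935 in GRCr8, from RefSeq, shown on the plus strand because both genes fell and these bases are upstream of both. Abcg8 begins on the minus strand to its left and Abcg5 on the plus strand to its right, and capitals mark the 1 match to CCAAT, in reverse complement, 13 bases before the start of Abcg5 and 197 before that of Abcg8.
Abcg5-Abcg8: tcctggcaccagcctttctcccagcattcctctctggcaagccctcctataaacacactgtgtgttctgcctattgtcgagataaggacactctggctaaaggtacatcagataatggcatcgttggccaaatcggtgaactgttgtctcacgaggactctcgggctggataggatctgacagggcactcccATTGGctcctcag

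Lcat, which esterifies cholesterol on circulating HDL, showed a small decrease with very little scatter. Its vehicle arrays ran from 13.33 through a median of 13.38 to 13.47. Its dosed arrays stood at 13.19, 13.35 and 13.32 at 64.6 mg/kg, at 13.33, 13.21 and 13.37 at 129.2 mg/kg, at 13.17, 13.18 and 13.21 at 258.1 mg/kg, at 13.16, 13.04 and 13.08 at 516.2 mg/kg, and at 13.08, 13.13 and 12.99 at 1032.5 mg/kg. From 258.1 mg/kg upwards every array lay below every vehicle array. Lcat fell by 0.29 at 516.2 mg/kg (log2, SE 0.06, 1.23-fold, adjusted p = 0.00980) and by 0.32 at 1032.5 mg/kg (SE 0.06, 1.25-fold, adjusted p = 0.00327). Soat1, which esterifies cholesterol inside cells, was dim, with a vehicle mean of 4.89, below the lower quartile of 5.03, and was not called.

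Over the dose steps 5 members had a negative slope from the vehicle to 1032.5 mg/kg that passed the test, where 6.25% of all genes did, and none had a positive one, where 8.76% did. They were Insig2 and Abcg8, each at -0.30 per step, Abcg5 at -0.20, Lcat at -0.07 and Npc2 at -0.06. Among the 15 dosed arrays alone, Insig2 (-0.29 per step, SE 0.07, adjusted p = 0.0286) and Abcg8 (-0.33, SE 0.06, adjusted p = 0.00747) passed, where 1.13% of all genes did. None passed upwards, where 2.28% did. Lcat, Abcg5 and Npc2 did not (adjusted p = 0.0635, 0.162 and 0.242).

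**Figure D4:**
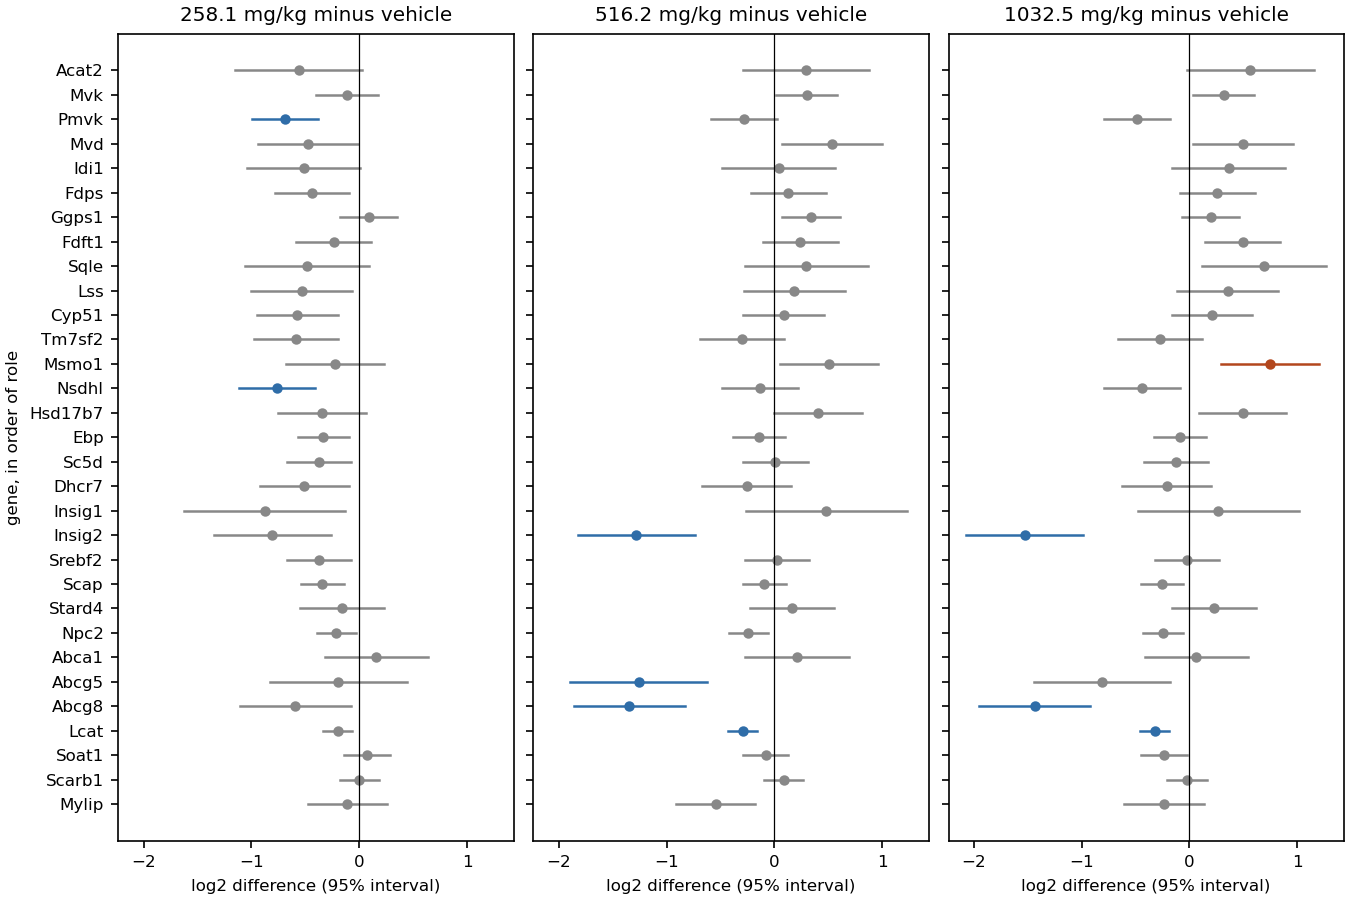
Log2 difference from the vehicle with its 95% interval for each of the 31 genes at 258.1, 516.2 and 1032.5 mg/kg; blue marks genes called lower, red genes called higher and grey genes not called. Most enzymes lie left of 0 at 258.1 mg/kg and near or right of it at the higher doses, while Insig2 and Abcg8 move further left.

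The 5 related lists of genes that are not members were counted beside them. At 129.2, 258.1, 516.2 and 1032.5 mg/kg limma called 0.352%, 2.23%, 6.3% and 4.81% of all genes higher. The shares called lower were 0.169%, 1.33%, 2.64% and 4.14%, for comparison with all 5 lists. Of 17 genes of the sterol sensing and degradation machinery, 1 rose and 1 fell at 258.1 mg/kg, 1 rose at 516.2 mg/kg and 1 fell at 1032.5 mg/kg: Erlin1, a membrane protein that takes part in degradation at the endoplasmic reticulum, rose by 0.47 (log2, adjusted p = 0.00445) and Pgrmc2, a haem-binding membrane protein, fell by 0.44 (adjusted p = 0.0237) at 258.1 mg/kg. Of 12 genes of the non-sterol isoprenoid branches 1 rose at 516.2 mg/kg and 2 at 1032.5 mg/kg, Dhdds, which builds dolichol, by 0.53 (adjusted p = 0.00423) and Rabggta, which prenylates Rab proteins, by 0.46 (adjusted p = 0.00363). Among the 14 genes for making fatty acids, which SREBP-1c drives, 1 fell at 129.2 mg/kg and 1 rose and 4 fell at 258.1 mg/kg. The counts were 1 and 2 at 516.2 mg/kg and 2 and 2 at 1032.5 mg/kg. Fasn, the fatty acid synthase, fell by 1.40 at 258.1 mg/kg (adjusted p = 0.0269) and differed by 0.01 at 516.2 mg/kg (adjusted p = 0.988), a dip at the same dose as that of the sterol enzymes. Scd, the stearoyl-CoA desaturase, fell by 2.80 there (adjusted p = 0.00661), and Me1, malic enzyme, rose by 1.33 (adjusted p = 0.00563).

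Of 17 genes of sterol trafficking and lipoproteins, 1 fell at 129.2 mg/kg, 3 at 258.1 mg/kg, 3 at 516.2 mg/kg and 4 at 1032.5 mg/kg, where 2 rose. At the top dose Apoa4, an apolipoprotein, fell by 2.10 (adjusted p = 3.96e-06), Nceh1, a cholesteryl ester hydrolase, rose by 1.44 (adjusted p = 0.0234) and Pltp, which exchanges phospholipids among lipoproteins, fell by 0.82 (adjusted p = 0.0140). Of 12 genes that convert cholesterol to bile acids, 1 rose and 1 fell at 258.1 mg/kg, 1 fell at 516.2 mg/kg and 2 fell at 1032.5 mg/kg. Slc27a5, which couples bile acids to coenzyme A, fell by 0.82 at the top dose (adjusted p = 0.000357) and Cyp7b1, an oxysterol hydroxylase listed at a dim vehicle mean of 3.90, by 0.28 (adjusted p = 0.0458). The median difference of each of the 5 lists lay between -0.42 and 0.13 at every dose.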

How the data were processed

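Liver RNA was hybridised to Affymetrix rat arrays, 21 in all, 1 per labelled sample. The deposited values are log2 signals from RMA, the summary method that the submitters' processing notes name. Which software ran it is not given in the sources used here. RMA compresses low signals, so differences of dim genes are understated. Values were used as deposited.

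After removal of 57 array controls, 31042 probe sets were fitted with limma 3.58.1 in R 4.3.3 (lmFit, eBayes), a coefficient per dose group and no covariate. Tests are two-sided, with Benjamini-Hochberg adjustment over all probe sets within a comparison and a threshold of 0.05. Slopes used dose steps 0 to 5. A gene was the probe set of the highest mean among those naming it alone; the 31 genes have 53 probe sets, 16 genes having several. Symbols of the platform annotation were updated through RefSeq's GRCr8 table. The fit was tested on simulated data.

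The members, the related lists and the tests were chosen with earlier results of these data known. Values per array are printed for members called at any dose and for the sterol sensing genes. From each related list at most 3 called genes are named, those with the largest changes at the dose with most calls, the highest such dose where doses tied. Alternatives covered scaling, dim probe sets, the probe set chosen, variance settings, array weights, RNA integrity, a fold minimum of 1.5, the replicate number as a block and each array left out in turn. Protein sequences are not used here, and no promoter held the sterol element by which promoters were to be chosen.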

Additional observations from a re-analysis of the deposited data

How the results depend on the processing

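Of the log2 changes of the called genes, none changed sign under any alternative. The counts of called members moved by more than 1.5 times as follows. At 129.2 mg/kg array weights gave 8 higher (Mvk, Idi1, Fdft1, Sqle, Lss, Cyp51, Msmo1 and Hsd17b7) and 2 lower (Insig2 and Abcg8) in place of 0; that fit gave replicate 2 of the dose a weight of 6.18, against 0.416 to 1.61 for the other arrays. At 258.1 mg/kg the mean of all probe sets of a gene gave 4 lower in place of 2. At 1032.5 mg/kg the count of 1 higher became 0 with only the groups compared, with an intensity trend and robust variance, with array weights, with cyclic loess, with RNA integrity as a covariate and with the replicate block, and array weights gave 6 lower in place of 3; the cause was not tested. Under these settings Msmo1 had adjusted p-values of 0.109, 0.0639, 0.0946, 0.0523, 0.0841 and, with the replicate block, 0.378. The replicate block leaves only vehicle replicates 1 to 3 to set against each dose.

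With each array left out in turn, the counts of lower members ranged from 0 to 2 at 258.1 mg/kg, from 3 to 5 at 516.2 mg/kg and from 3 to 4 at 1032.5 mg/kg. The counts of higher members ranged from 0 to 1 at 516.2 mg/kg, the 1 appearing without 516.2 mg/kg replicate 2, and from 0 to 2 at 1032.5 mg/kg, the 2 appearing without vehicle replicate 3. The mean difference of the enzymes from the vehicle stayed between -0.51 and -0.35 at 258.1 mg/kg and between 0.04 and 0.36 at 1032.5 mg/kg over all alternatives. Under alternatives chosen after seeing the data, the enzymes' mean difference between 258.1 and 129.2 mg/kg stayed between -0.84 and -0.54, and that between 516.2 and 258.1 mg/kg between 0.49 and 0.59.

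The labels do not say whether the replicate numbers pair the arrays. Deviations from the group means correlated at 0.0740, 0.0543 and -0.04 on average among arrays numbered 1, 2 and 3, with pairs from -0.28 to 0.394. With 3 arrays a dose such averages cannot settle the question. Replicate numbers 4 to 6 occur only in the vehicle group. A fit with the number as a block therefore sets each dose against vehicle replicates 1 to 3 alone. In that fit Msmo1 at 1032.5 mg/kg had a log2 difference of 0.42 and Lcat at 516.2 mg/kg one of -0.28 (adjusted p = 0.0721). Groups of 3 arrays and the wide vehicle spread of the enzymes limit what could be called.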
